A study of Mus musculus with 4 samples.

Results

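The 31 genes described here belong to the DNA replication and S phase programme, and were taken by name from the 32265 gene rows that the 4 deposited matrices share. All 31 were found in every matrix, and each had at least 89 molecules in every library, molecules being counted by unique molecular identifiers (UMIs). The cells were bone marrow cells of C57BL/6 mice, labelled as stem and progenitor cells and sorted as LSK, that is lineage-negative and positive for Sca1 and cKit, and were profiled by inDrop, a droplet method that captures polyadenylated RNA of single cells. Wild-type (WT) mice and mice with chronic myeloid leukaemia (CML) each gave 1 untreated library and 1 library after imatinib, 4 in all. Imatinib inhibits the ABL kinase and some other tyrosine kinases including KIT, and was gavaged every other day at a dose of 400 mg/kg, over 30 days by the protocol and over 4 weeks by the treatment label. The labels call the leukaemic animals CML mice without naming the transgene, and give no number of animals per library. With 1 library per group no difference has a replicate check, so no test was made, and all intervals below are 95% intervals for counting error only. The libraries can also differ by animal, sort and preparation, and these cannot be told apart from genotype and treatment.

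DNA replication starts at origins where Cdc6 and other loading factors place the ring-shaped MCM helicase on DNA in G1 phase. Cyclin E and other kinase activities then let Cdc45 and the GINS complex switch the helicase on, polymerase alpha with primase starts each strand, and the sliding clamp Pcna holds the replicative polymerases on the template. Ribonucleotide reductase and thymidylate synthase supply the nucleotides, and histone chaperones and methylation factors restore chromatin behind the fork. Most of these genes are transcribed in late G1 and S phase by E2F factors, so their transcripts serve as markers of cycling cells. In bone marrow, long-term stem cells are mostly quiescent, while myeloid and erythroid progenitors divide often.

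Promoter sequences are shown because E2F sites are the feature by which such genes are usually recognised. RefSeq promoters (build GRCm38.p6) were matched by symbol for 23 of the 31 genes and read over the 250 bases upstream of the annotated start. An E2F-type match, defined as TTTCCCGC, TTTGGCGC, TTTCGCGC or TTTGCCGC on either strand, was present in 9 of the 23 (39.1%), against 2.16% of 27025 genes and 1 of 25 genes (4%) of a G2 and mitosis list. The CCAAT letters, searched on both strands, were in 69.6% of the replication promoters, 37.5% of all promoters and 80% of the G2 and mitosis promoters. The TTTGAA letters of the CHR element, which is typical of mitotic genes, were in 17.4%, 18.3% and 36% respectively. A promoter is printed for each functional group with a match, that with the most matches, and capitals mark the E2F-type matches on either strand. Nucleotide supply genes had none in this window. Mcm6 on the minus strand (chr1:128359706-128359955) had 3 matches, of which 2 overlap at positions -110 to -99 from the start. Cdc6 lies on the plus strand (chr11:98907901-98908150), Pola1 on the minus strand (chrX:93632156-93632405), Cdca7 on the plus strand (chr2:72475969-72476218) and Dtl on the minus strand (chr1:191575545-191575794), where the match ends at the base before the start. The starts are those of RefSeq: in GENCODE vM21 the Cdc6 gene begins at 98907801, so the whole printed window of Cdc6 and 60 bases of that of Cdca7 lie inside the GENCODE gene, and the other windows lie outside.
Mcm6: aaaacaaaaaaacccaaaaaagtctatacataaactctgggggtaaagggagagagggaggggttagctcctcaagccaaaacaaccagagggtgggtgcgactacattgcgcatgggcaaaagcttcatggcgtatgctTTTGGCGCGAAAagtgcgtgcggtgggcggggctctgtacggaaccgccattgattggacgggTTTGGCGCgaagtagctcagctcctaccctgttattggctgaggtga
Cdc6: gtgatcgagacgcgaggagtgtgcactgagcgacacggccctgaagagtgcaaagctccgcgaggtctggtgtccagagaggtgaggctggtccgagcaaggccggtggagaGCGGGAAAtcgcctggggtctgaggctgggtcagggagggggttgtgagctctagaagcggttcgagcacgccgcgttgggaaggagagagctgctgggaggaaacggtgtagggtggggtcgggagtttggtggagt
Pola1: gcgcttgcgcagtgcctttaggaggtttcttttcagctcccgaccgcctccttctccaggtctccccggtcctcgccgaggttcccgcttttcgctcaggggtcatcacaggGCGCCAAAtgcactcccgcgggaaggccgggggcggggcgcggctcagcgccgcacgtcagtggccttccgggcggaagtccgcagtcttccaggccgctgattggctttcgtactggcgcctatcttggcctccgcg
Cdca7: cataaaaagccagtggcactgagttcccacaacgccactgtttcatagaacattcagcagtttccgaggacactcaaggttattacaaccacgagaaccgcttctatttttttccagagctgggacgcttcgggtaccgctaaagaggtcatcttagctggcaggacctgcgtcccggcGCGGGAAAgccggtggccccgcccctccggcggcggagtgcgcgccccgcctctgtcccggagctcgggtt
Dtl: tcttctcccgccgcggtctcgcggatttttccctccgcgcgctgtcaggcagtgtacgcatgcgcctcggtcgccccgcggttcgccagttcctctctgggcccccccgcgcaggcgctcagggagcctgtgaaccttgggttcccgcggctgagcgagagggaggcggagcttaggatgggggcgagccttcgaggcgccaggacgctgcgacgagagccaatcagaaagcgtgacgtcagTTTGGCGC

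The 31 genes lie on 17 chromosomes, and all are annotated as protein coding. Mcm7, Gins2, Cdc45, Ccne2 and Fen1 overlap a protein-coding gene on the opposite strand, for example Mcm7 with Cops6 and Ap4m1. The sources used here do not say whether the counting used strand, so reads of such partners may be included in their values. A processed copy of the clamp gene, Pcna-ps2, was listed separately with at most 66 UMIs in a library.

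Depth and cell mixture differed between the libraries. The kept cells numbered 3030 in WT untreated, 4187 in WT imatinib, 3032 in CML untreated and 5139 in CML imatinib, with median depths of 3638, 1486, 5161 and 1198 UMIs. The smallest deposited cell had 1001 and 1006 UMIs in the untreated files but 200 in both imatinib files. Cell mixture differed too: cells led by granulocyte-monocyte progenitor markers (Elane, Mpo, Prtn3 and Ctsg) made up 18.8% and 23.0% of the untreated cells of 1000 or more UMIs, and 83.0% and 74.5% of the imatinib cells. Cells with too few markers for any class were 39.3% and 43.0% of the untreated cells but 2.89% and 2.47% of the imatinib cells, and a further 14.2%, 10.3%, 7.28% and 9.97% (WT untreated, CML untreated, WT imatinib, CML imatinib) had mixed markers, so the class comparisons leave out much of the untreated libraries. Ly6a, which encodes the sorting marker Sca1, was at 192 CPM in WT untreated (UMIs of the gene scaled to 1000000 UMIs per library) and 49.6 in WT imatinib, and at 95.8 and 51.0 in the CML libraries, while Kit lay between 136 and 176 in all 4. Xist, which is transcribed in female cells, was at 1.52, 3.15, 2375 and 94.97 CPM, so the libraries were not alike in this marker of sex. The WT libraries shared 1135 cell names (39.6% of the names in WT untreated and 20.4% of those in WT imatinib), against 80 to 340 for other pairs, but same-named cells were no more alike than differently named ones (mean cosine 0.33 for both). The closing section gives what changed when cells with a shared name were left out.

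Replication transcripts took nearly the same share of all molecules in the 4 libraries. Summed over cells, the 31 genes reached 4707 CPM in WT untreated (interval 4670 to 4745), 4529 in WT imatinib (4484 to 4576), 4778 in CML untreated (4749 to 4807) and 5160 in CML imatinib (5114 to 5205). CML imatinib was highest, and WT imatinib was lowest. The highest value rested on 1 group of cells: without the erythroid marker class described below, the log2 ratio of CML imatinib to CML untreated turned from 0.11 to -0.17, and that of CML imatinib to WT imatinib from 0.19 to -0.11. In such sums, fewer cells of a kind and less RNA per cell cannot be told apart.

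**Figure D1:**
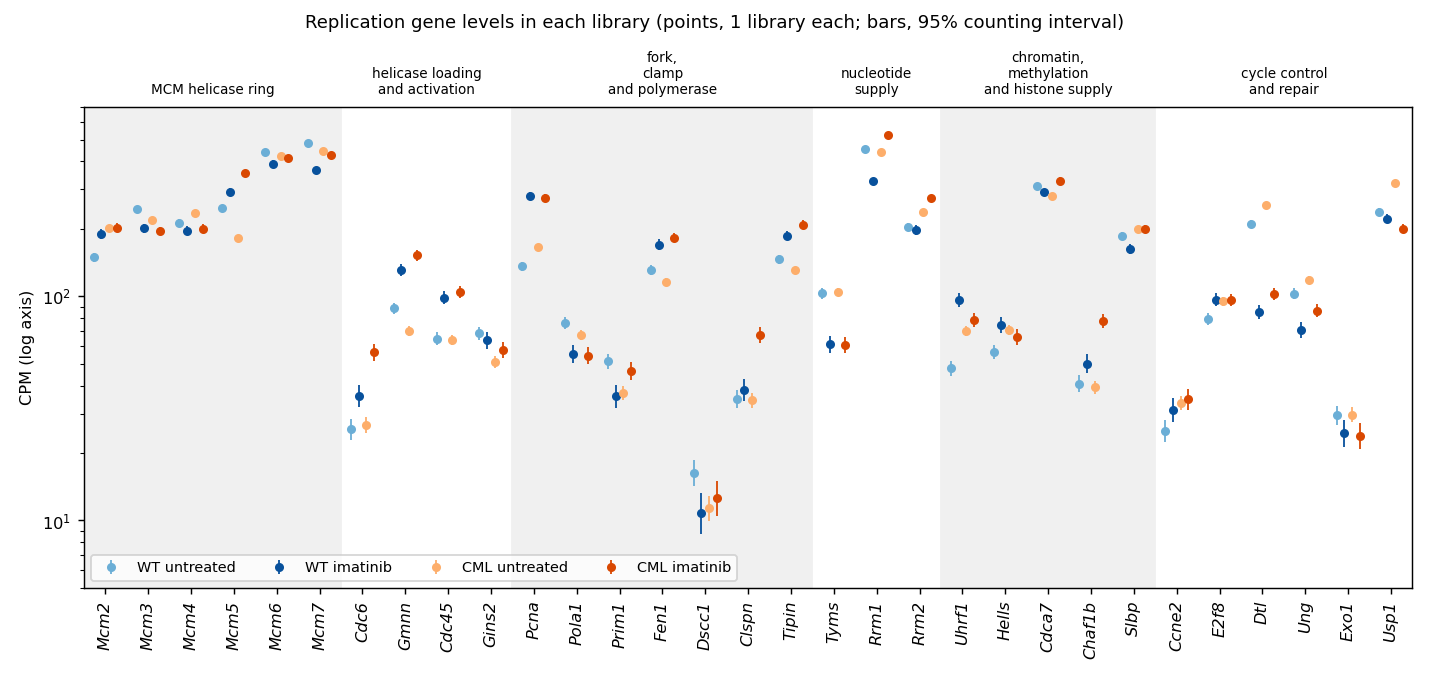
Levels of the 31 replication genes in the 4 libraries, in CPM on a log axis, grouped by role. Each point is 1 library and each bar a 95% counting interval. Dtl and Tyms are lower in both imatinib libraries than in both untreated ones, and Pcna, Gmnn, Cdc45, Fen1 and Tipin are higher.

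Few of the 31 genes differed by 2-fold. A gene was counted as different when the ratio of CPM was 2-fold or more and the higher library had at least 50 UMIs and 50 CPM. Between CML untreated and WT untreated, 0 of the 25 replication genes past that floor differed, where 0.915% of all genes did (0.523% higher and 0.392% lower), and the median log2 ratio was -0.02 (all genes 0.03). With imatinib in WT, Pcna and Uhrf1 were higher and Dtl lower among 26 genes past the floor (all genes 13%, with 7.58% higher and 5.45% lower), and the median was -0.10 (all genes -0.03). With imatinib in CML, Gmnn and Cdc6 were higher and Dtl lower among 27 (all genes 17.4%, with 9.4% higher and 7.95% lower), and the median was 0.15 (all genes 0.01). Between CML imatinib and WT imatinib, 0 of 27 differed (all genes 2.5%, with 2.32% higher and 0.179% lower), with a median of 0.16 (all genes 0.02). The share of replication genes past 2-fold was thus near or below that of all genes in each comparison. Some of these medians turned sign with the cells used: without the erythroid marker class, with imatinib in CML the median was -0.17 and 0 genes were 2-fold higher, and between the imatinib libraries it was -0.13. With imatinib in WT the median was 0.22 when cells were thinned to 1000 UMIs. TMM scaling, which sets library sizes by a trimmed mean of gene ratios, ended every 2-fold higher call with imatinib: Pcna and Uhrf1 were then at 0.79 and 0.76 on the log2 scale in WT, and Gmnn and Cdc6 at 0.79 and 0.75 in CML. Under it Dtl was still 2-fold lower in both genotypes, at -1.55 and -1.65, and Tyms joined it, at -1.01 in WT and -1.11 in CML. The comparisons share libraries pairwise, and they are given side by side for that reason.

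With imatinib, single genes of the programme differed in opposite directions while the sum differed little, and the directions were often alike in WT and CML, which share no library in this contrast. Counting intervals lay above 1 in both genotypes for 9 of 31 genes and below 1 in both for 9 of 31, against 30.7% and 36.6% of the 3937 genes past the floor in both. Intervals pointed opposite ways for 3 genes (9.68%, all genes 6.86%), and for the other 10 at least 1 interval included 1. Across every alternative setting tried, 7 genes were higher with imatinib in both genotypes: Cdc45, Cdc6, Chaf1b, Fen1, Gmnn, Pcna and Tipin. Another 6 were lower in both under every setting: Dtl, Mcm7, Pola1, Tyms, Ung and Usp1. These lists rest on the sign of the ratio alone, and the share of all genes that keep a sign was not computed. Mcm7 in CML and Usp1 in WT both came as near to 0 as -0.009. The granulocyte-monocyte progenitor class was not among the settings. Within it, intervals of Cdc45 and Fen1 included 1 in both genotypes, and that of Cdc6 did in CML. By the intervals over all kept cells, 8 of the 25 replication genes past the floor were above and 8 below in both (32% each), so that like directions were about as frequent as among all genes.

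**Figure D2:**
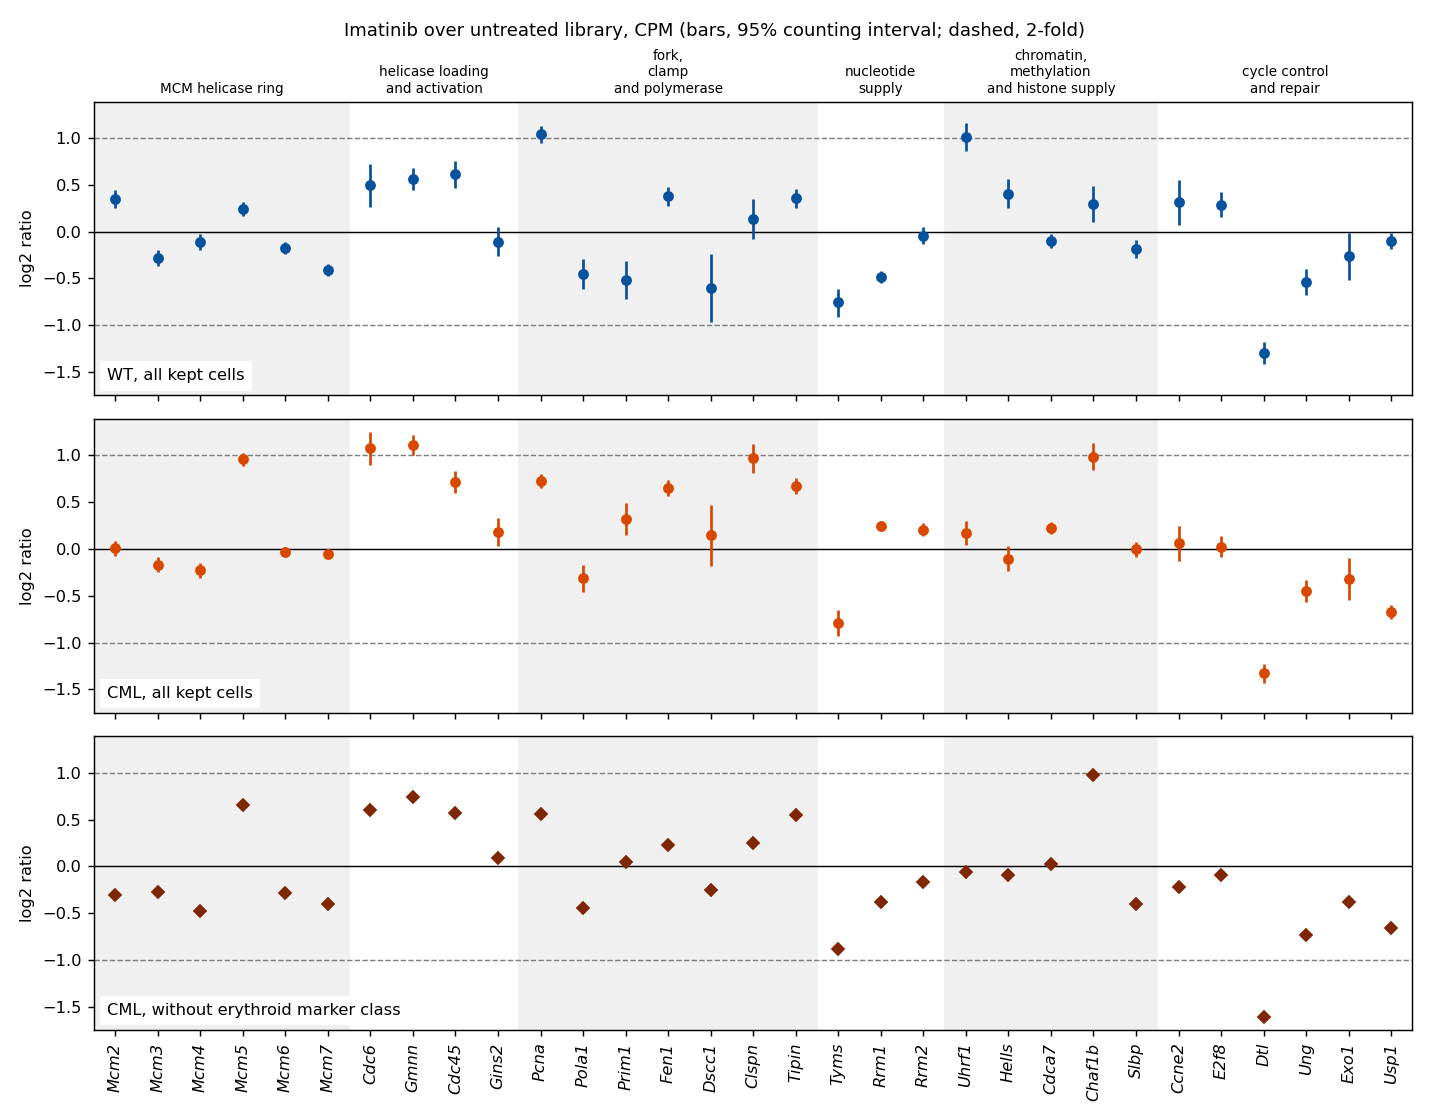
The log2 ratio of imatinib to untreated for each replication gene in WT, in CML, and in CML after removal of the erythroid marker class from both CML libraries. Points are 1 library over 1 library, bars are 95% counting intervals (not drawn in the lowest panel) and dashed lines mark 2-fold. Dtl lies below the lower line in all panels, and Gmnn and Cdc6 leave the region above the upper line once the erythroid marker class is removed.

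The 6 subunits of the MCM ring did not move together. Values are in CPM in the order WT untreated, WT imatinib, CML untreated, CML imatinib, here and for the genes below. Mcm2 was at 149, 190, 201 and 202, so that WT untreated stood below the others. Mcm3 was at 244, 201, 220 and 196, and Mcm4 at 212, 197, 235 and 200. Their log2 ratios with imatinib were small, at -0.28 in WT and -0.17 in CML for Mcm3 and at -0.11 and -0.23 for Mcm4, and the sign turned in CML for Mcm3 and in WT for Mcm4 when cells were thinned to 1000 UMIs. Mcm5 was at 247, 292, 182 and 353, and had the widest spread of the ring: the log2 ratio with imatinib was 0.96 in CML (interval 0.89 to 1.02) and 0.24 in WT (0.16 to 0.32), the latter turning to -0.01 under TMM scaling. Mcm6 was at 442, 391, 425 and 414. Mcm7, which overlaps other genes, was at 484, 365, 445 and 427, lower with imatinib by 0.41 on the log2 scale in WT and by 0.06 in CML.

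Of the 4 genes grouped under helicase loading and activation, Cdc6, Gmnn and Cdc45 were higher in both imatinib libraries and Gins2 was not. Their summed level was 1.33-fold higher in WT (329 against 247 CPM) and 1.75-fold higher in CML (371 against 212). In CML it was 1.45-fold higher without the erythroid marker class and 1.22-fold within the granulocyte-monocyte progenitor class. Within the latter class in WT, log2 ratios were 0.41 for Cdc6, 0.37 for Gmnn, 0.07 for Cdc45 and -0.27 for Gins2. The interval of Cdc45 there included 1. The summed level includes Gmnn, an inhibitor of loading, with 152 of the 371 CPM in CML imatinib, and is no measure of loading itself. Cdc6, the loader, was at 25.5, 35.9, 26.7 and 56.3. Gmnn, which encodes geminin, the inhibitor that blocks a second loading in the same cycle, was at 88.6, 131, 70.3 and 152. Its log2 ratio with imatinib was 1.11 in CML (interval 1.01 to 1.22) and 0.56 in WT (0.44 to 0.68), and that of Cdc6 was 1.07 (0.90 to 1.25) and 0.50 (0.26 to 0.72). Removing the erythroid marker class left both higher in CML, at 0.74 for Gmnn and 0.61 for Cdc6, but under 2-fold. Cdc45, part of the active helicase, was at 64.7, 98.7, 63.8 and 105, with non-overlapping untreated and imatinib pairs. Gins2, another part of it, was at 68.6, 63.7, 50.9 and 57.8, and did not follow Cdc45.

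At the fork, the clamp gene Pcna, Fen1 and Tipin were higher with imatinib in both genotypes over all kept cells, and Pola1 was lower. Pcna was at 136, 280, 166 and 274. Both imatinib values exceeded both untreated ones, with log2 ratios of 1.04 in WT (interval 0.95 to 1.13) and 0.72 in CML (0.65 to 0.80). Fen1, which trims the primer flap of Okazaki fragments and overlaps another gene, was at 131, 170, 116 and 182. Tipin, a partner of Timeless that steadies the fork, was at 146, 187, 131 and 209. Both had the same order as Pcna in that the imatinib libraries were the highest. Clspn, which encodes the checkpoint adaptor claspin, was at 34.7, 38.2, 34.3 and 67.2, and only CML imatinib stood apart. Its log2 ratio with imatinib in CML, 0.97, was 0.25 without the erythroid marker class and -0.16 in the first of 4 equal parts of the cell columns of CML imatinib, which holds 3 cells of that class. Pola1, the catalytic subunit of polymerase alpha, was at 75.9, 55.5, 67.4 and 54.3, and Prim1, the primase subunit that makes RNA primers, at 51.2, 35.8, 37.2 and 46.4. Pola1 was lowest in both imatinib libraries, whereas Prim1 was highest in WT untreated. Dscc1, a subunit of an alternative clamp loader that acts in cohesion, was at 16.3, 10.8, 11.4 and 12.6, below the floor of 50 CPM throughout.

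Nucleotide supply was divided between thymidylate and ribonucleotide synthesis. Tyms, thymidylate synthase, was at 103, 61.0, 105 and 60.5: the 2 untreated libraries differed by less than the counting error, and so did the 2 imatinib libraries. Its log2 ratio with imatinib was -0.76 in WT (interval -0.91 to -0.61) and -0.79 in CML (-0.92 to -0.66). Rrm1, the large subunit of ribonucleotide reductase, was at 455, 325, 440 and 523, and Rrm2, the small subunit, at 204, 198, 237 and 274. Rrm1 was lowest in WT imatinib and highest in CML imatinib, and Rrm2 was highest in CML imatinib. Without the erythroid marker class the CML ratios turned, from 0.25 to -0.38 for Rrm1 and from 0.21 to -0.17 for Rrm2, and the Rrm1 ratio then had the sign it had in WT (-0.45 with the class removed there).

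Genes of chromatin restoration varied singly. Uhrf1, which brings the maintenance methyltransferase to new DNA, was at 47.7, 96.1, 70.0 and 78.6. It was higher with imatinib by 1.01 on the log2 scale in WT (interval 0.86 to 1.16) and by 0.17 in CML (0.04 to 0.29), where TMM scaling turned it to -0.15. Hells, a chromatin remodeller, was at 56.3, 74.6, 70.9 and 65.9, and its partner Cdca7 at 311, 291, 281 and 328. Neither separated the libraries by treatment. Chaf1b, a subunit of the chromatin assembly factor that deposits histones behind the fork, was at 40.8, 50.1, 39.3 and 77.8, and the CML ratio of 0.99 stayed at 0.97 without the erythroid marker class. Slbp, which binds the stem-loop of histone messages, was at 185, 163, 200 and 200.

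Genes of cycle control and repair included the member with the widest difference. Dtl, the substrate receptor with which a ubiquitin ligase degrades Cdt1 on the clamp, was at 210, 85.4, 257 and 102. Each imatinib library lay more than 2-fold under the untreated library of its genotype, with log2 ratios of -1.30 in WT (interval -1.42 to -1.18) and -1.33 in CML (-1.43 to -1.23), and over all settings tried these ran from -1.55 to -0.98 and from -1.71 to -1.29. Ung, which removes uracil from DNA, was at 103, 70.7, 118 and 86.4, and Exo1, an exonuclease of mismatch repair, at 29.4, 24.5, 29.7 and 23.8. Usp1, which removes ubiquitin from the clamp, was at 239, 222, 320 and 200, and CML untreated stood above the rest. Ccne2, which encodes cyclin E2, was at 25.1, 31.2, 33.4 and 34.8, and E2f8, a repressor of E2F target genes late in S phase, at 79.1, 96.7, 94.8 and 96.4. For these 2 genes WT untreated was the low library. Summed, the group was at 685, 531, 852 and 544, so CML untreated was 1.24-fold above WT untreated, the largest such ratio among the 6 groups.

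Shares of cells with a UMI gave the same picture for Dtl and Pcna. In cells thinned to 1000 UMIs, Dtl was detected in 16.4% of WT untreated cells (interval 15.1% to 17.7%), 6.48% of WT imatinib (5.61% to 7.45%), 17.6% of CML untreated (16.3% to 19.0%) and 5.71% of CML imatinib (4.92% to 6.59%). Free RNA can add to such shares, and no class gave a clean measure of it. The T cell and plasma cell marker classes had Dtl in 4.00% of 50 and 4.48% of 134 cells of WT untreated, and in 4.00% of 50 and 5.63% of 71 cells of CML untreated. The T cell class of WT untreated was itself not free of cycling cells by transcript, with 50% of its cells at 2 or more UMIs of G2 and mitosis genes. The imatinib libraries held 0 T cell class cells and 6 and 1 plasma cell class cells, so the part of free RNA in their Dtl shares was not tested. Pcna was detected in 10.99%, 21.2%, 12.7% and 19.6% of cells, against 6.00% and 5.97% in those classes of WT untreated and 6.00% and 11.3% in those of CML untreated. Unthinned, the shares were 37.0%, 12.6%, 43.8% and 10.7% for Dtl and 35.0%, 40.8%, 46.5% and 33.8% for Pcna, and for Pcna they did not keep the order of the thinned shares.

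Mean replication transcripts per cell lay close together in the 4 libraries. After thinning to 1000 UMIs, the mean number of replication UMIs per cell was 4.29, 4.55, 4.39 and 4.55, with SDs over cells of 3.42, 3.10, 3.34 and 3.52. The counting intervals of these means were 4.22 to 4.37, 4.48 to 4.63, 4.31 to 4.46 and 4.47 to 4.62. These intervals take UMIs as independent counts and leave out the spread over cells, which the SDs give. Within each genotype the imatinib mean was higher, and these counting intervals did not overlap. In CML imatinib the mean includes the erythroid marker class described below, whose 177 cells had a mean of 9.27. The 4 equal parts of the CML imatinib columns held 3, 10, 108 and 56 cells of that class. The means of these parts were 4.24, 4.47, 5.01 and 4.41, the first being below the 4.39 of CML untreated. The mean without that class was not computed. WT untreated had the lowest library mean, whereas WT imatinib was lowest in the summed CPM, where deep cells weigh more. Cells with 5 or more made up 41.5% in WT untreated (interval 39.8% to 43.3%), 44.7% in WT imatinib (42.9% to 46.5%), 43.9% in CML untreated (42.1% to 45.7%) and 43.3% in CML imatinib (41.6% to 45.1%). The intervals of neighbouring shares overlap. The low end of the distribution differed more: cells with no replication UMI were 12.3% and 11.05% of the untreated libraries and 6.66% and 8.54% of the imatinib libraries. Cells with at most 1 replication UMI and at most 1 of the 28 G2 and mitosis genes, the least cycling by transcript, made up 16.8% and 14.6% of the untreated libraries and 5.75% and 6.88% of the imatinib libraries. The share of marker classes low in replication transcripts moved with this, and its part in the difference was not tested.

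**Figure D3:**
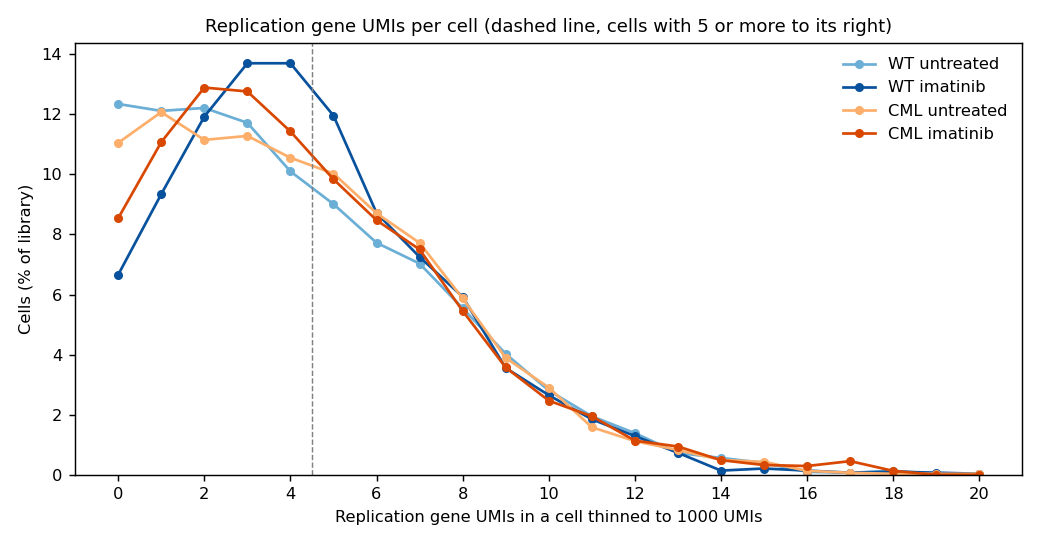
Distribution of replication gene UMIs per cell after thinning every cell of 1000 or more UMIs to 1000. The vertical axis is the percentage of cells of a library. The untreated libraries exceed the imatinib libraries at 0 UMIs (12.3% and 11.05% against 6.66% and 8.54%), and the curves run together from about 6 UMIs upward.

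Replication transcripts differed between marker classes. A class was a range of a per-cell count, not a cell type: a thinned cell joined the class with the most marker UMIs if it had at least 3 and at least 2 times those of the next class. In WT untreated the mean per 1000 UMIs was 5.21 in the granulocyte-monocyte progenitor class (569 cells), 4.96 in the megakaryocyte class (46), 4.92 in the erythroid class (255), 4.28 in the monocyte class (85), 3.21 in the stem class (53) and 3.11 in the lymphoid-primed class (188). The T cell and plasma cell classes were lowest, at 2.22 (50 cells) and 1.96 (134). CML untreated had 5.18, 3.98, 5.06, 5.24, 2.81 and 3.67 for the first 6 of these classes and 1.28 and 1.89 for the last 2. The neutrophil class, of 50 or more cells only in the imatinib libraries, had 3.10 in WT (84 cells) and 3.34 in CML (129). Stem class cells had 5 or more replication UMIs in 24.5% of WT untreated and 25% of CML untreated cells, against 54.7% and 55.3% in the granulocyte-monocyte progenitor class. In the stem class, 27 of 53 and 41 of 68 cells had exactly the minimum of 3 marker UMIs.

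**Figure D4:**
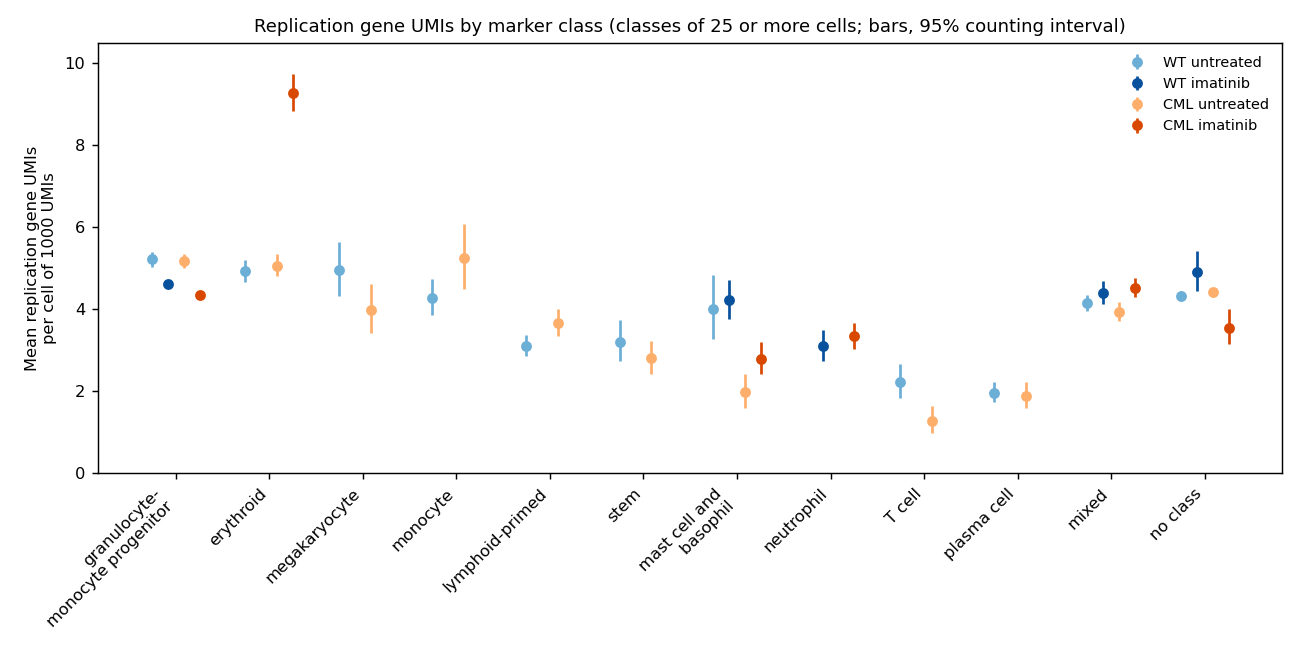
Mean number of replication gene UMIs per cell thinned to 1000 UMIs, by marker class and library, for classes of 25 or more cells. Bars are 95% counting intervals. The erythroid marker class of CML imatinib, at 9.27, stands above every other class, while the granulocyte-monocyte progenitor class is lower in the imatinib libraries (4.61 and 4.35) than in the untreated ones (5.21 and 5.18).

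The highest replication level of the series was in the erythroid marker class of CML imatinib. Its 177 cells had a mean of 9.27 replication UMIs per 1000 (interval 8.82 to 9.73), against 5.06 in the 274 cells of CML untreated (4.80 to 5.34) and 4.92 in the 255 cells of WT untreated. Cells with 5 or more made up 85.3% of the class in CML imatinib and 51.5% in CML untreated. The class was 5.75% of the cells of CML imatinib but held 37.4% of their replication UMIs and 21.3% of all their UMIs, with a median depth of 5403 UMIs against 1791 for the library. The cells were not of the same kind in the 2 CML libraries by their markers: Hbb-bs, Hbb-bt, Car2 and Hba-a2 led the class in CML imatinib, and Car2, Car1 and Aqp1 led it in the untreated libraries. Granulocyte-monocyte progenitor markers had a median of 0 UMIs in the class in both CML libraries. WT imatinib had 7 such cells, too few for a comparison. Their place in the file was uneven as well, since the 4 equal parts of the cell columns of CML imatinib held 3, 10, 108 and 56 of them, with Xist at 3.75, 55.8, 216 and 68.9 CPM. Whether the columns come from several animals or runs was not tested.

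Within the erythroid marker class, summed levels in CML imatinib were 2.80-fold those of CML untreated for the helicase loading and activation group. That group includes Gmnn, the inhibitor of loading. The levels were 2.32-fold for the fork group, between 1.72-fold and 1.99-fold for the MCM ring, chromatin and nucleotide supply, and 0.82-fold for cycle control and repair. Among 29 replication genes past the floor, 10 were 2-fold higher in CML imatinib than in CML untreated and 0 were 2-fold lower, where 36.3% of all genes differed (18.3% higher and 18% lower). The median log2 ratio was 0.77 (all genes 0.00). Clspn was at 187 against 37.9 CPM (log2 ratio 2.30, interval 1.95 to 2.67) and Gmnn at 324 against 95.7 (1.76, 1.53 to 1.999). Mcm5 was at 670 against 201 (1.74, 1.58 to 1.90) and Cdc6 at 136 against 40.7 (1.74, 1.38 to 2.11). The others of the 10 were Fen1, Cdc45, Prim1, Cdca7, Rrm1 and Pcna. Of the genes lower in CML imatinib as a whole, Dtl had 191 against 325 (log2 ratio -0.77), Usp1 188 against 312 (-0.74) and Tyms 83.8 against 128 (-0.62). Mcm7, at 0.75, Ung, at 0.50, Mcm4, at 0.43, Pola1, at 0.15, and Mcm3, at 0.14, were not lower in the class. Exo1, at -0.30, had an interval that included 1. In the same class CML untreated and WT untreated differed at 2-fold in 0 of 25 genes (all genes 2.09%, with 1.23% higher and 0.856% lower), with a median of -0.05.

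In the granulocyte-monocyte progenitor class, replication transcripts were lower in both imatinib libraries. The mean was 5.21 in WT untreated (interval 5.03 to 5.41), 4.61 in WT imatinib (4.52 to 4.70), 5.18 in CML untreated (5.01 to 5.35) and 4.35 in CML imatinib (4.27 to 4.44), and the intervals of untreated and imatinib libraries did not overlap. Cells with 5 or more made up 54.7%, 45.4%, 55.3% and 41.8%. Over 4 equal parts of the cell columns the means ran from 4.92 to 5.41, 4.48 to 4.77, 4.91 to 5.64 and 4.29 to 4.46, with each range given in the order of the libraries. These parts are cells of the same library and not replicates of a condition. The cells of the class also differed in markers, with a median of 10, 25, 8 and 25 marker UMIs per 1000, and in depth, with medians of 5997, 2271, 7172 and 1807 UMIs; the part of either in the difference was not tested.

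Nucleotide supply and repair genes had the lowest ratios in this class. With imatinib in CML, the class had 5 genes with intervals above 1 and 17 below, or 5 and 15 of the 25 past the floor (20% and 60%, all genes 33.5% and 47%), a median of -0.29 (all genes -0.01), and 0 genes 2-fold higher and 1 lower among 25 (all genes 12.5%, with 6.27% higher and 6.2% lower). With imatinib in WT, 9 genes lay above and 16 below, or 7 and 15 of the 25 past the floor (28% and 60%, all genes 30.9% and 41.2%), the median was -0.19 (all genes -0.02), and 1 gene was 2-fold higher and 1 lower among 25 (all genes 8.37%, with 4.82% higher and 3.55% lower). The summed nucleotide supply genes stood at 0.65-fold in CML and 0.66-fold in WT, and the cycle control and repair genes at 0.57-fold and 0.74-fold. Rrm2 had log2 ratios of -0.66 and -0.55, Rrm1 of -0.55 and -0.56, and Tyms of -0.75 and -0.99, in CML and WT respectively. Dtl was again the gene past 2-fold in both, at -1.28 and -1.38. Against this, Pcna was higher at 0.58 and 1.07, Gmnn at 0.63 and 0.37, Chaf1b at 0.94 and 0.29, Tipin at 0.62 and 0.32, and Mcm5 at 0.68 and 0.15. Intervals were below 1 in both genotypes for 13 genes and above 1 in both for these 5. Of the 24 past the floor in both, this was 12 and 4 (50% and 16.7%), against 33.9% and 25.4% of 3819 genes. Between genotypes, the class had 0 genes past 2-fold without imatinib (all genes 0.751%, with 0.544% higher and 0.207% lower) and 0 with it (all genes 0.541%, with 0.46% higher and 0.0811% lower), with medians of -0.06 and -0.10.

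Cells with a UMI of a replication gene held more UMIs of the others, and the association with mitotic genes differed in sign among the genes. In each of the 4 libraries and for each of the 31 genes, cells with a UMI of the gene had more UMIs of the other replication genes than cells without, by 0.16 at the least. Neither this difference nor that for mitotic genes was computed for genes outside the 31. Marker classes differed in replication level, and the part of class mixture in these differences was not tested. The difference in UMIs of the 28 G2 and mitosis genes between cells with and without a gene is a description over cells of shared libraries and depth, and ranged from below to above 0. It was lowest for Ung, at -1.79, -2.04, -1.38 and -1.47 UMIs per 1000, so that Ung-positive cells carried fewer mitotic transcripts in every library. Mcm2 (median of the 4 libraries -0.71), Cdc6 (-0.62), Hells (-0.61) and Mcm6 (-0.58) were also below 0 in all 4. At the other end were E2f8, at 1.62, 0.67, 1.27 and 0.80, and Rrm1, at 1.33, 0.40, 1.18 and 0.88. In all, 13 genes were below 0 in all 4 libraries, 6 were above 0 in all 4 (Clspn, Gmnn, Tyms, Rrm2, Rrm1 and E2f8), and the rest had both signs. These counts go by sign alone, and no interval was computed. Some of the differences were near 0, such as Pcna in WT untreated (-0.017) and Mcm3 in CML untreated (-0.020). Dscc1, among the 13, had only 20 positive cells in WT imatinib and 50 in WT untreated. By sign, MCM subunits lay on the side of Ung, except Mcm7, whose sign differed among libraries. Cells with at most 1 replication UMI had no G2 and mitosis UMI in 49.9% and 44.1% of untreated and 19.6% and 21.2% of imatinib cells.

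**Figure D5:**
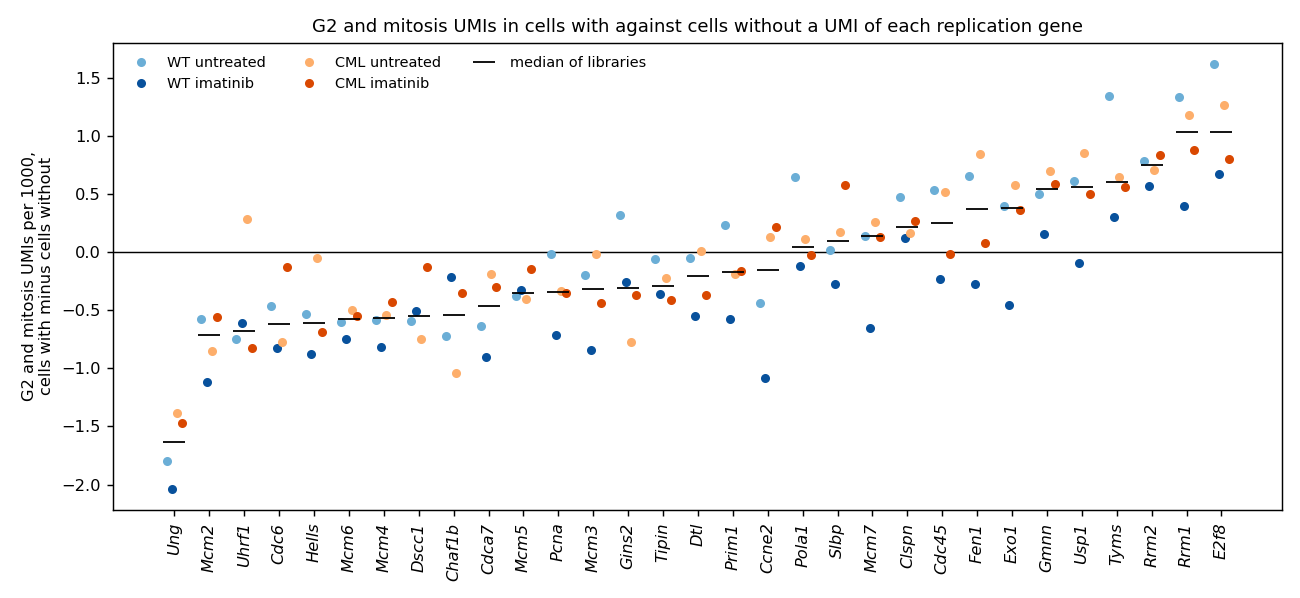
For each replication gene, the mean number of G2 and mitosis UMIs per 1000 in cells with a UMI of the gene minus that in cells without, in the 4 libraries (points), with their median (black bar). Genes are ordered by the median, from Ung at the low end to E2f8 at the high end.

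Other genes of the pathway also differed singly. The 7 lists of 135 further genes, named for their roles, were set beside the 31, and the 4 genes of each with the largest difference between CML imatinib and CML untreated are named. In this comparison 17.4% of all genes past the floor differed by 2-fold (9.4% higher and 7.95% lower). The counts of each list are to be read beside these shares. Of the 10 replication stress and repair genes past the floor, 0 were 2-fold higher and 1 was lower. That was Chek1, the checkpoint kinase, with 95.5 CPM in CML untreated and 39.7 in CML imatinib (log2 ratio -1.26, WT -0.57). Fanci (1.40, not past the floor), Tonsl (0.99) and Wdr48, the cofactor of Usp1 (0.93), were higher. Of 23 polymerase, clamp loader and fork genes, 3 were higher and 1 lower: Lig1, the ligase that joins Okazaki fragments, had 59.4 CPM in CML untreated and 192 in CML imatinib (1.69, WT 0.97), Timeless 24.9 and 53.8 (1.11, WT 0.89) and Rnaseh2c 38.9 and 79.7 (1.03, WT 0.97), and Supt16, a histone chaperone subunit, 302 and 117 (-1.37, WT -0.67). Each of these had the same direction in WT.

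Of 12 nucleotide supply genes past the floor, 0 were higher and 2 lower (all genes 9.4% and 7.95%). The 2 were Dck, which salvages deoxycytidine (-1.87, WT -1.07), and Dctd, which feeds thymidylate synthesis (-1.23, WT -0.83). Impdh2, of guanine nucleotide synthesis (-0.59), and Tk1, the thymidine salvage kinase (0.53), were under 2-fold. Of 12 origin licensing and firing genes, 0 passed 2-fold either way, with Gins3 at 1.04 under the floor of 50 CPM, Cdt1, the helicase loader that geminin blocks, at 0.89, Topbp1 at 0.68 and Orc4 at -0.68. Of 9 chromatin assembly and methylation genes, 1 was higher, Chaf1a, the partner of Chaf1b (1.33, WT 0.96), and 0 were lower, with Dnmt1 at -0.51, Nasp at 0.45 and Rbbp4, a further subunit of the same assembly factor, at -0.38.

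Of 9 G1/S control genes, 1 was higher and 1 lower (all genes 9.4% and 7.95%). Ccne1, which encodes cyclin E1, was at 25.4, 22.3, 29.3 and 120 CPM, so that only CML imatinib stood apart (log2 ratio 2.03 against CML untreated), and Cdkn1a, the p21 inhibitor, was at 93.2, 25.5, 72.7 and 34.1 (-1.09, WT -1.87). E2f2 (1.86) and Tfdp1 (-0.87) did not pass the rule. Of 25 G2 and mitosis genes, 2 were higher and 0 lower: the mitotic kinases Aurka, at 35.0 and 83.6 (1.26, WT 0.71), and Plk1, at 97.0 and 218 (1.17, WT 0.78). Bub1 (-0.89) and Cks2 (-0.85) were lower by less than 2-fold. List medians in this comparison lay between -0.08 for G1/S control and 0.15 for G2 and mitosis, beside 0.15 for the 31 replication genes and 0.01 for all genes. The erythroid marker class moved with these values as it did with the replication genes, and its part in them was not tested.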

How the data were processed

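Each deposited matrix holds a signal per gene and cell that the authors had normalized to a common total per cell. Per the submitters' processing notes, the tools were Partek 8.0 and Bowtie 1.1.1 and the build GRCm38 (mm10), with no roles given. UMI counts were recovered by dividing each cell by its smallest value above 0, and 100% of the quotients were whole within 0.02. Cells with at least 500 UMIs, at least 200 genes and at most 20% mitochondrial UMIs entered library sums, which were scaled to 1000000 UMIs per library (CPM) and cover 8245224 to 21283108 UMIs a library. Cells with at least 1000 UMIs were thinned to 1000 for shares and marker classes (seed 20240 plus the library number). No doublet caller was run; leaving out the 5% of cells with the most UMIs stands in for it. Ratios carry exact conditional binomial intervals, levels exact Poisson intervals and shares exact binomial (Clopper-Pearson) intervals at 95%, none of which covers differences between animals or preparations. A gene entered list medians if 1 of the 2 libraries had 10 CPM or more of it. The genes, lists and rules were chosen with earlier results of these data known. All 31 genes are named, with up to 4 genes of at least 20 CPM from each further list, by their log2 ratio in CML. On simulated counts of 1753 to 1825 genes with 200 changed by 1.5 on the log2 scale, the script recovered 100% of the changes with 0 false calls in each comparison, and 94.4% to 95.0% of intervals held the true ratio. These counts held counting error only, came from genes of at least 100 CPM, and had changes beyond the 2-fold rule. The simulation checks the arithmetic, and does not cover genes between 50 and 100 CPM or differences between animals, sorts and cell mixtures. Python 3.11.15, numpy 2.4.6, scipy 1.17.1, pandas 2.3.3 and, for TMM scaling as an alternative, edgeR 4.0.16 in R 4.3.3 were used.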

Additional observations from a re-analysis of the deposited data

Results flagged for a closer look

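For 5 genes the intervals of the imatinib ratio pointed opposite ways in WT and CML. The difference itself was not tested, since each ratio is 1 library over 1 library. Over all kept cells these were 3 of 31 genes (9.68%), against 6.86% of the 3937 genes past the floor in both. In the granulocyte-monocyte progenitor class they were 2 of 31 (6.45%), and the share of all genes was not computed. Over all kept cells, Rrm1 had a log2 ratio of -0.48 in WT and 0.25 in CML (difference 0.73), Cdca7 of -0.10 and 0.22 (difference 0.32) and Prim1 of -0.52 and 0.32 (difference 0.84). Without the erythroid marker class the CML ratios were -0.38, 0.02 and 0.04, so that the opposite sign was lost for Rrm1 and the values for Cdca7 and Prim1 came near 0. Under TMM scaling they were -0.07, -0.10 and 0.0005, so that the opposite sign was lost for Rrm1 and Cdca7 and Prim1 came near 0. Within the granulocyte-monocyte progenitor class, Mcm2 had 0.28 in WT and -0.33 in CML (difference -0.61), and Uhrf1 had 0.82 and -0.28 (difference -1.10).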

How the results depend on the processing

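No paired analysis was possible because each group has 1 library. TMM scaling moved the all-gene medians to -0.14 (CML untreated against WT untreated), -0.29 (WT imatinib against WT untreated), -0.34 (CML imatinib against CML untreated) and -0.23 (CML imatinib against WT imatinib), and the replication medians to -0.185, -0.35, -0.18 and -0.077. The replication median thus lay below that of all genes in the first 2 comparisons and above it in the last 2, as without TMM. The TMM counts were 0 higher and 2 lower with imatinib in each genotype. Of the ratios of 0.5 or more on the log2 scale, 0 changed sign under any setting, except Clspn in CML and 3 genes of CML imatinib against WT imatinib (Cdc6, Clspn and Rrm1) in the first of 4 equal parts of the columns of CML imatinib.

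For CML imatinib against CML untreated, the median was -0.17 without the erythroid marker class, -0.195 without all mature classes, -0.16 from the first of 4 parts of its columns and -0.058 without the 5% of cells with the most UMIs, each with 0 genes 2-fold higher. The higher genes numbered 0 by the mean of single-cell values, 1 from cells thinned to 1000 UMIs, 1 at a floor of 100, 4 with cells of at least 1000 UMIs and 4 without ribosomal, mitochondrial and haemoglobin genes in the scaling. For CML imatinib against WT imatinib, the medians were -0.13, -0.10, -0.16 and -0.093 in the same order as above, -0.068 by the mean of single-cell values and -0.0026 from thinned cells. For WT imatinib against WT untreated, the thinned median was 0.22, the mean of single-cell values gave 0 genes 2-fold lower, and 1 gene in place of 2 was higher with cells of at least 1000 UMIs, no cell filter, a floor of 100, no ribosomal, mitochondrial and haemoglobin genes, no mature classes, or no cells whose name the WT libraries share.

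Shares of cells, in the order WT untreated, WT imatinib, CML untreated, CML imatinib, were 51.6%, 58.4%, 54.5% and 54.7% at 4 or more replication UMIs, 32.5%, 32.7%, 33.9% and 33.5% at 6 or more, and 36.6%, 36.3%, 37.3% and 36.1% at 3 or more of 500 UMIs. CML imatinib had 40.8% without the erythroid marker class, 40.4% in the first of 4 parts of its columns and 46.9% in the third, WT untreated 39.4% in the third and WT imatinib 47.6% in the last. Settings for the erythroid marker class, shared cell names and parts of the columns were chosen after seeing the data. The remaining 142 recomputed values of the medians, counts, shares and class means stayed within their limits. Depth limits single genes: Dscc1 had as few as 89 UMIs in a library.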
